A study of Oryza sativa Japonica Group with 6 samples.

Results

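The mRNA levels of 5 rice DREB transcription factor genes and of the coactivator gene MBF1c were followed in endosperm at 2 temperatures. The 6 genes were taken by locus identifier, with no threshold on their values: DREB1A (LOC_Os09g35030), DREB1B (LOC_Os09g35010), DREB1C (LOC_Os06g03670), DREB2A (LOC_Os01g07120), DREB2B (LOC_Os05g27930) and MBF1c (LOC_Os06g39240). All 6 had a row among the 29907 mRNA gene rows of the expression table. The locus identifiers place DREB1A and DREB1B on chromosome 9, DREB1C and MBF1c on chromosome 6, DREB2A on chromosome 1 and DREB2B on chromosome 5.

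All samples were endosperm of NingJing1, a Japonica rice cultivar, taken 10 days after pollination, while this storage tissue fills with starch. High temperature plants (HT, n = 3 samples) had 36 °C days and 33 °C nights, and normal temperature plants (NT, n = 3 samples) had 28 °C days and 25 °C nights. Both groups grew in the field until booting and were then moved to growth chambers, so HT was a long exposure that was sampled at a single time. Whether the endosperm of both groups was equally far in development at that time was not tested. Whether replicate samples come from different plants is not stated in the labels, so the p-values reflect the spread between these samples alone, which may be technical.

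DREB proteins carry an AP2/ERF DNA-binding domain and bind the dehydration-responsive element in the promoters of stress genes. The DREB1 branch, also called CBF, is best known for rapid induction by cold, and the DREB2 branch for responses to drought, salt and heat. MBF1c belongs to the multiprotein bridging factors, which link transcription factors to the TATA-binding protein, and in Arabidopsis it accumulates under heat and is needed for heat tolerance.

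Expression was given as FPKM, fragments scaled to transcript length and library total, so levels can be compared between genes. FPKM summed over all rows to between 372847 and 380742 in HT samples and between 365035 and 370669 in NT samples, and sequencing depth is unknown. Log2 values of tested genes correlated between samples at 0.913 to 0.928 within a group and 0.865 to 0.872 across groups, a description across genes. The starchy endosperm markers GLUA2, GLUB4, GBSSI, BEIIb, AGPL2 and RPBF summed to between 32157 and 32802 FPKM in HT and between 26336 and 27033 FPKM in NT, so the defining markers of the labelled tissue were present. Nearly all of that sum is the glutelins GLUA2 and GLUB4, which were higher in HT. GBSSI, BEIIb, AGPL2 and RPBF were lower, with log2 fold changes of -1.49, -1.93, -1.34 and -0.70 (limma, adjusted p under 0.05 for each of the 6 markers). The rise of GLUA2 was small, at 0.11 on the log2 scale. Its call was lost with no filter on low values, with no variance trend and under quantile normalization, where it turned to -0.05. In each library, between 77 and 125 mRNA genes were listed at 0 FPKM although both other samples of the group had at least 1 FPKM, and for 8 to 20 of these both others had at least 10 FPKM. An isolated 0 may therefore be a failed estimate, and genes with a 0 are given by sample below.

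Of the 4 members abundant enough to test, DREB2A was the one whose mRNA rose in HT. DREB2B, the most abundant member, had close values in both groups. DREB1A, DREB1B and MBF1c were uneven between samples, and DREB1C was near 0 with its HT samples above its NT samples. Of the 4 members with a mean of at least 0.5 FPKM, the minimum for testing, 1 was higher in HT and 0 were lower at an adjusted p under 0.05 (limma with Benjamini-Hochberg adjustment; at an unadjusted p under 0.05 the counts were also 1 and 0). Over all 17050 tested mRNA genes 13.0% were higher in HT and 22.8% were lower, or 35.8% in either direction. DREB1A and DREB1C lay under the minimum, and DREB1B reached it only through HT samples.

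**Figure D1:**
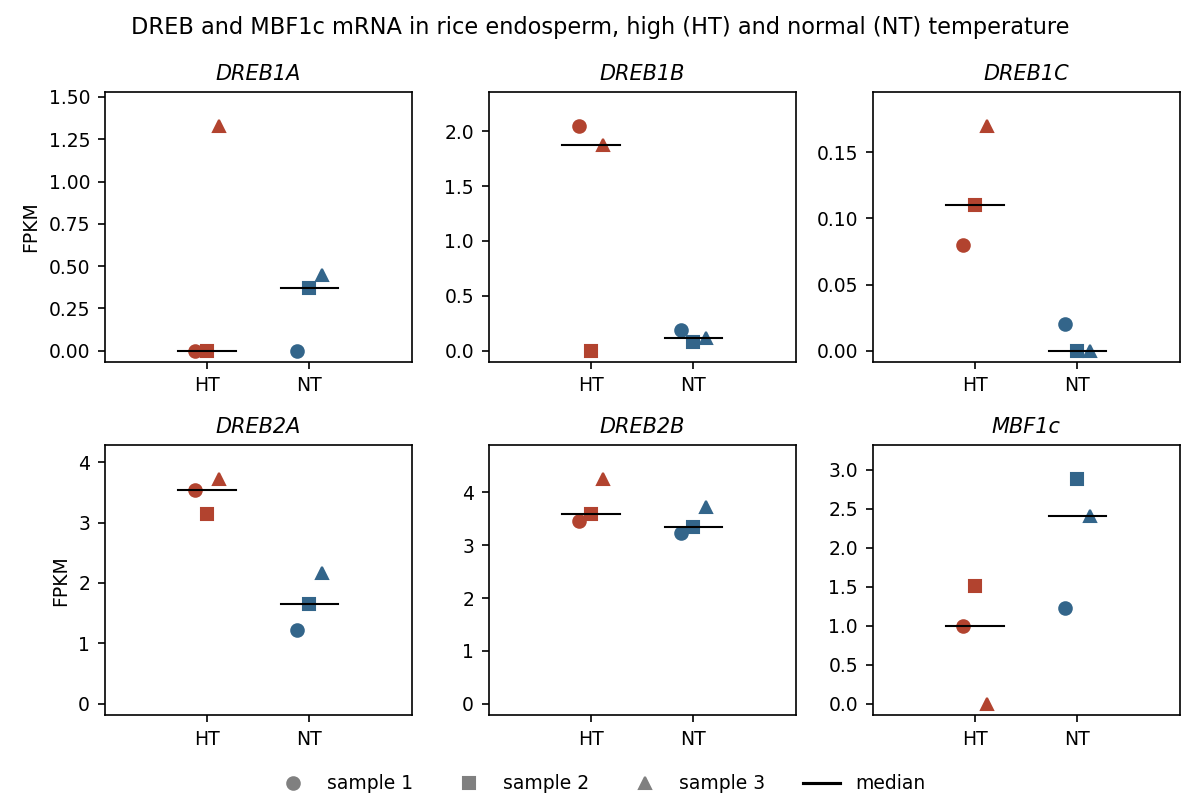
FPKM of DREB1A, DREB1B, DREB1C, DREB2A, DREB2B and MBF1c (y axes, each with its own scale) in the 3 HT samples and the 3 NT samples. Marker shapes give the sample number, which the labels do not say pairs samples, and the line is the group median. The HT samples of DREB2A lie between 3.14 and 3.72 FPKM, above all NT samples, while DREB1A, DREB1B and MBF1c each have an HT sample at 0.

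DREB2A, a factor of the DREB2 branch, had 3.54, 3.14 and 3.72 FPKM in HT, against 1.23, 1.66 and 2.17 FPKM in NT. Every HT sample was above every NT sample. The means were 3.47 ± 0.297 FPKM in HT and 1.69 ± 0.471 FPKM in NT (SD, n = 3 each), a ratio of 2.06. The log2 fold change of FPKM + 1, a scale that understates changes of low genes, was 0.75 with a 95% interval of 0.38 to 1.11 (limma, adjusted p = 0.013). The call held in each of the 15 alternative settings, with adjusted p between 0.010 and 0.046. The groups did not overlap for 51.7% of all tested genes, 19.2% with HT above NT and 32.5% with HT below NT, and an exact permutation test over these 6 samples cannot go below p = 0.1, the value DREB2A reached.

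DREB2B, the close relative of DREB2A, had 3.46, 3.59 and 4.25 FPKM in HT, against 3.23, 3.34 and 3.72 FPKM in NT. The groups overlapped, since NT sample 3 lay above HT samples 1 and 2. The means were 3.77 ± 0.424 FPKM in HT and 3.43 ± 0.257 FPKM in NT (SD, n = 3 each). The log2 fold change was 0.10 with a 95% interval of -0.12 to 0.32 (limma, adjusted p = 0.42), so changes above 0.32 on this scale lay outside the interval. Rice DREB2B is known to produce alternatively spliced forms, of which only some encode a full protein, and the table holds a single value per gene, so shifts between forms were not analysed here.

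The balance within the DREB2 pair is a description that reuses the values of DREB2A and DREB2B given above, so it adds no separate evidence. The ratio of DREB2A to DREB2B FPKM within a sample, which does not depend on library scaling, was 1.02, 0.875 and 0.875 in HT, against 0.381, 0.497 and 0.583 in NT. The HT ratios were all above the NT ratios (exact permutation test, two-sided, p = 0.1, the smallest that 3 against 3 samples allow). DREB2A made up 46.7% to 50.6% of the summed FPKM of the pair in HT and 27.6% to 36.8% in NT. The summed FPKM of the pair was 7.00, 6.73 and 7.97 in HT, against 4.46, 5.0 and 5.89 in NT, and these groups did not overlap either.

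**Figure D2:**
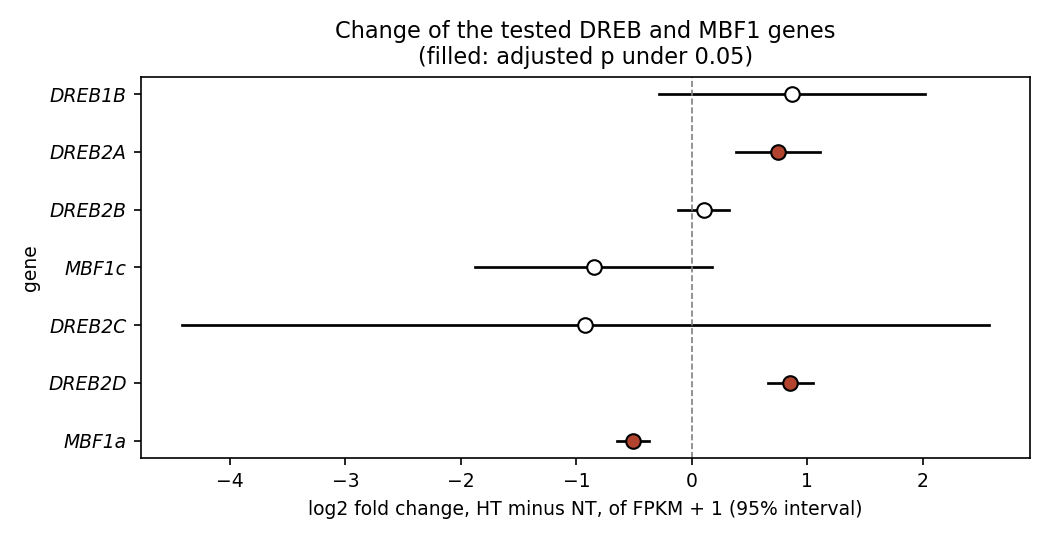
Log2 fold change of FPKM + 1 (x axis, HT minus NT) with its 95% limma interval for the 4 tested members and the 3 tested relatives; filled points had an adjusted p under 0.05. DREB2A and DREB2D lie to the right of 0 and MBF1a to the left, and DREB2C, with a sample listed at 0, has the widest interval.

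Among the cold-associated DREB1 genes, DREB1B had 2.05, 0 and 1.87 FPKM in HT, against 0.19, 0.08 and 0.12 FPKM in NT. HT samples 1 and 3 were far above NT, and HT sample 2 was listed at 0, below all NT samples. With all samples the log2 fold change was 0.87, with a 95% interval of -0.28 to 2.02 (limma, adjusted p = 0.20). Without HT sample 2 it was 1.39 (limma, adjusted p = 0.0017), so that 1 library decides the call. Leaving out any other single sample gave adjusted p between 0.30 and 0.42. DREB1B reached the minimum for testing only through HT samples 1 and 3, as its NT mean was 0.13 FPKM. The p-values do not account for this.

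DREB1A, a close neighbour of DREB1B on chromosome 9, had 0, 0 and 1.33 FPKM in HT, against 0, 0.37 and 0.45 FPKM in NT. HT sample 3 held the whole signal of its group, and the groups overlapped. DREB1A was not tested in the fit, and the exact permutation test gave p = 1 (two-sided). Its log2 difference was 0.08 with all samples and -0.33 without HT sample 3. It was also below 0 without NT sample 1 (-0.09) and with a pseudocount of 0.1 (-0.28), so no direction can be given.

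DREB1C, described in rice as expressed at a steady low level rather than induced, was near the bottom of the range. It had 0.08, 0.11 and 0.17 FPKM in HT, against 0.02, 0 and 0 FPKM in NT. The groups did not overlap (exact permutation test, two-sided, p = 0.1), but the values are close to the rounding of the table at 2 decimals. When every gene with a value above 0 was tested, DREB1C had a log2 fold change of 0.15 (limma, adjusted p = 0.026).

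Summed over DREB1A, DREB1B and DREB1C, the level was 2.13, 0.11 and 3.37 FPKM in HT, against 0.21, 0.45 and 0.57 FPKM in NT. HT sample 2 was the lowest of all 6 samples and the other HT samples the highest. DREB1A and DREB1B lie in a tandem cluster with DREB1H and no other protein-coding gene between them in the RefSeq assembly, and reads of such related genes may have been shared between copies.

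MBF1c had 1.0, 1.51 and 0 FPKM in HT, against 1.23, 2.88 and 2.40 FPKM in NT. The HT values tended low, but HT sample 2 was above NT sample 1, and HT sample 3 was listed at 0. The log2 fold change was -0.85 with a 95% interval of -1.88 to 0.17 (limma, adjusted p = 0.17). Without HT sample 3 it was -0.46 (limma, adjusted p = 0.30), and without any other single sample adjusted p lay between 0.12 and 0.35. The interval spans falls and rises of up to 0.17 on this scale. It includes the 0 of HT sample 3, which may be a failed estimate. Whether a rise above 0.17 lies outside the interval without that sample was not tested.

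In order of level, the members in HT ran from DREB2B and DREB2A, whose sample ranges overlapped, down to DREB1B, MBF1c and DREB1A, which overlapped each other, and DREB1C, whose range lay inside theirs. In NT, DREB2B was above all others, MBF1c and DREB2A overlapped, and the DREB1 genes lay below them, the range of DREB1A overlapping those of DREB1B and DREB1C. The mean of DREB2B over all samples exceeded that of 72.0% of mRNA gene rows, DREB2A 66.1%, MBF1c 57.1%, DREB1B 47.1% and DREB1A 39.5%, and DREB1C was lower still.

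Other genes of these families were taken from a list of 9, of which 7 had a row and 3 were tested. DREB2D rose, MBF1a fell and DREB2C did not pass. DREB2D (LOC_Os05g39590), a further DREB2 factor, had 1.45, 1.60 and 1.28 FPKM in HT, against 0.35, 0.31 and 0.39 FPKM in NT. The groups were well apart, with a log2 fold change of 0.85 and a 95% interval of 0.66 to 1.05 (limma, adjusted p = 0.0011). DREB2D reached the minimum for testing only through its HT samples, as its NT mean was 0.35 FPKM. The p-value does not account for this, and with a minimum mean of 1 FPKM DREB2D was not tested. MBF1a (LOC_Os08g27240), the second bridging factor gene, had 2.15, 2.11 and 2.31 FPKM in HT, against 3.46, 3.54 and 3.65 FPKM in NT. MBF1a was lower in all 3 HT samples, with a log2 fold change of -0.51 and a 95% interval of -0.65 to -0.37 (limma, adjusted p = 0.0019).

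DREB2C (LOC_Os08g45110) was the most abundant DREB gene of the list. It had 26.15, 28.18 and 0 FPKM in HT, against 17.03, 16.25 and 16.28 FPKM in NT. HT samples 1 and 2 were above NT and HT sample 3 was listed at 0. With all samples the log2 fold change was -0.92 (limma, adjusted p = 0.65). Without HT sample 3 it was 0.68 (limma, adjusted p = 0.0037), a change of sign that rests on a single value.

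The remaining DREB1 relatives were at or near 0. DREB1G (LOC_Os02g45450) had 0.27, 0.28 and 0.31 FPKM in HT, against 0.02, 0.03 and 0.02 FPKM in NT, which puts every HT sample above NT at a low level. DREB1D (LOC_Os06g06970) was listed at 0 in HT and at 0, 0.26 and 0 FPKM in NT. DREB1F (LOC_Os01g73770) and DREB1H (LOC_Os09g35020) were listed at 0 in HT, and in NT each had 1 sample above 0, at 0.03 and 0.01 FPKM.

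Upstream of the DREB1 genes, the bHLH activator ICE1 fell and the kinase MPK3 rose. ICE1 (LOC_Os11g32100), which switches on CBF genes in Arabidopsis, had 8.63, 7.98 and 7.97 FPKM in HT, against 22.07, 21.41 and 20.69 FPKM in NT. The HT level was 0.383 of the NT level, with a log2 fold change of -1.28 and a 95% interval of -1.42 to -1.15 (limma, adjusted p = 0.00011). MPK3 (LOC_Os03g17700), a stress-activated MAP kinase that acts on ICE1, had 8.20, 6.52 and 9.51 FPKM in HT, against 3.15, 3.92 and 4.09 FPKM in NT. Its groups did not overlap and its log2 fold change was 0.94 with a 95% interval of 0.56 to 1.32 (limma, adjusted p = 0.0069).

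ICE2 (LOC_Os01g70310), the paralog of ICE1, had a smaller fall, with a log2 fold change of -0.28 (limma, adjusted p = 0.043). That call was lost, among other settings, under each of the 3 other scalings and without HT sample 1 or any NT sample, with adjusted p up to 0.20. SIZ1 (LOC_Os05g03430), a SUMO ligase that stabilises ICE1 in Arabidopsis, fell by 0.22 on the log2 scale (limma, adjusted p = 0.020). SIZ1 was lost under the same scalings (adjusted p up to 0.19) and without HT sample 3, NT sample 1 or NT sample 3 (up to 0.060). In all, 1 of the 9 tested genes of this list was higher, 3 were lower and 5 did not pass, and their median log2 fold change was -0.08, equal to that of all tested genes at 2 decimals. With 13.0% higher and 22.8% lower over all tested genes, these counts are near the background.

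**Figure D3:**
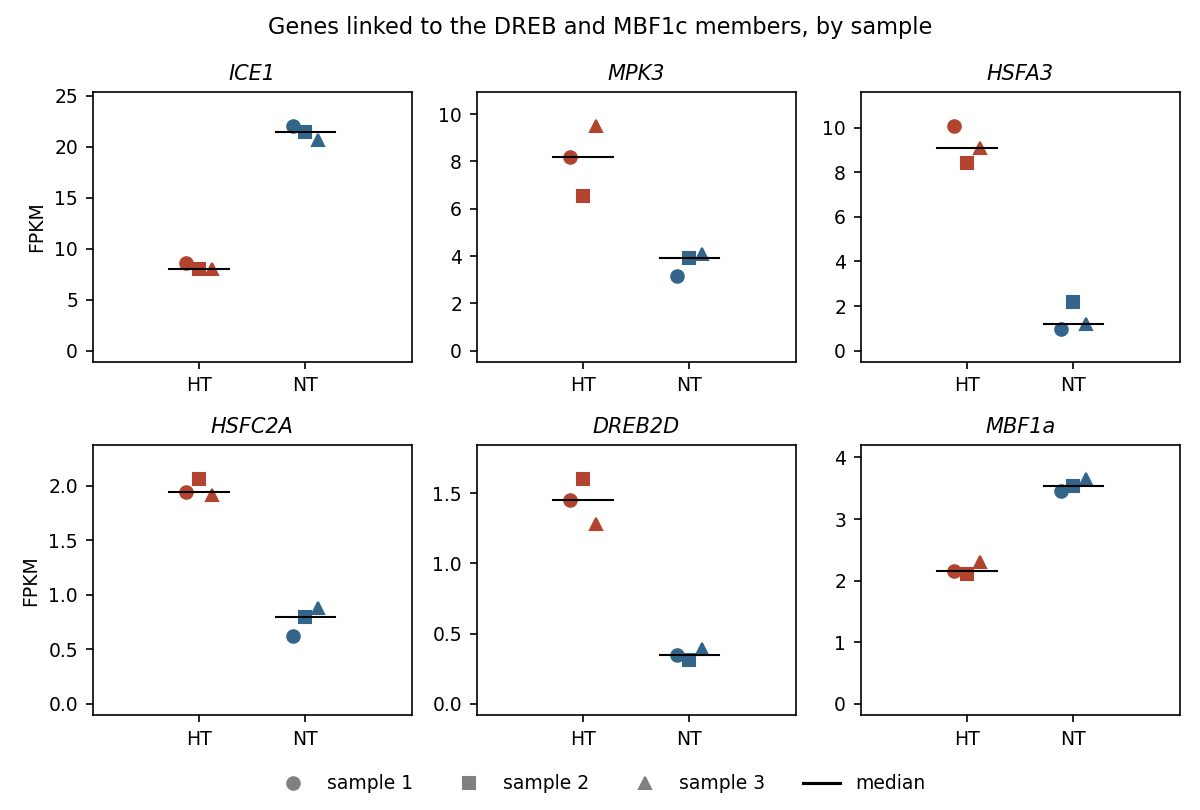
FPKM (y axes, each with its own scale) of ICE1, MPK3, HSFA3, HSFC2A, DREB2D and MBF1a in the 3 HT samples and the 3 NT samples; marker shapes give the sample number and the line is the group median. In each panel the groups do not overlap: ICE1 and MBF1a are lower in HT and MPK3, HSFA3, HSFC2A and DREB2D are higher.

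Stress genes listed as targets of DREB factors were higher in HT where they passed. Whether DREB factors drove these changes was not tested. Of 12 genes on this list 11 were tested, and 8 were higher in HT, 0 were lower and 3 did not pass (limma). At an unadjusted p under 0.05, 0 were lower as well. Over all tested genes 13.0% were higher and 22.8% were lower, and the list was chosen with earlier results of these data known. The median log2 fold change of the 11 was 1.07, against -0.08 for all tested genes. The count higher was 5 without HT sample 2 or without NT sample 3 and between 6 and 8 in the other settings. The dehydrin RAB16A (LOC_Os11g26790), a water-stress protein, had 141.83, 162.42 and 146.31 FPKM in HT, against 27.23, 28.35 and 25.84 FPKM in NT.

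PBZ1 (LOC_Os12g36880), a pathogenesis-related protein, had 59.59, 60.77 and 63.08 FPKM in HT, against 15.73, 16.82 and 15.93 FPKM in NT. PBZ1 was higher in every HT sample, with a log2 fold change of 1.86 and a 95% interval of 1.74 to 1.97 (limma, adjusted p = 2.6e-05). RAB16B (LOC_Os11g26780), a tandem neighbour of RAB16A with which it may share reads, had 13.03, 6.63 and 5.80 FPKM in HT, against 1.70, 1.96 and 1.80 FPKM in NT (log2 fold change 1.67, limma adjusted p = 0.0084). LIP9 (LOC_Os02g44870), a dehydrin gene induced in rice overexpressing DREB1A, had 26.05, 24.76 and 14.18 FPKM in HT, against 6.27, 6.90 and 6.34 FPKM in NT. Its groups did not overlap, and HT sample 3 was the lowest of HT.

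The other genes that rose were GOLS2, LEA3, P5CS1 and WSI724, with log2 fold changes of 1.47, 1.07, 0.62 and 0.42. Of these, GOLS2, LEA3 and WSI724 each lost the call without 4 or more of the single samples, at adjusted p up to 0.062, 0.11 and 0.095. RAB16C, SALT and GOLS1 did not pass, and GOLS1 (LOC_Os03g20120) had 1.86, 1.31 and 1.75 FPKM in HT, against 1.71, 1.84 and 1.37 FPKM in NT. GOLS1 encodes a galactinol synthase, as does GOLS2.

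Of the markers of embryo and aleurone, tissues rich in dehydrins, 3 were tested. In HT 1 was higher, 0 were lower and 2 did not pass, and at an unadjusted p under 0.05 (limma) 2 were higher. Over all tested genes 13.0% were higher and 22.8% were lower. The 4 listed markers with a row (OLE16, VP1, RAMY1A and OSH1) summed to between 664 and 694 FPKM in HT and between 88.4 and 583 FPKM in NT, nearly all of it from the oleosin OLE16. OLE16 had 648.76, 656.43 and 678.88 FPKM in HT, against 112.16, 569.13 and 74.31 FPKM in NT, and did not pass (limma, adjusted p = 0.11). Every HT sample of OLE16 was above every NT sample, as for 19.2% of all tested genes, and its NT sample 2 was near the HT level. VP1 was the 1 of 3 tested that was higher, by 0.15 on the log2 scale (limma, adjusted p = 0.040), but leaving out each sample in turn ended the call every time (adjusted p from 0.067 to 0.095). RAMY1A was listed at 0 in 5 of the 6 samples, and OSH1, a marker of the embryo meristem, had 0.60, 0.66 and 0.52 FPKM in HT, against 0.63, 0.59 and 0.66 FPKM in NT. The 5 green pericarp markers summed to between 135 and 184 FPKM in HT and between 164 and 233 FPKM in NT. Of these, CAB2R, a light-harvesting protein gene, fell, with 35.60, 33.32 and 38.85 FPKM in HT, against 77.96, 73.49 and 70.73 FPKM in NT (log2 fold change -1.03, limma adjusted p = 0.00050), and the other 4 did not pass. The part of these tissues in the changes of DREB2A and the dehydrins was not tested. In such bulk samples fewer cells of a type and less RNA per cell cannot be told apart.

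Heat shock factors act beside DREB2A and MBF1c in heat responses. Of 19 genes 16 were tested, 2 rose, 2 fell and 12 did not pass, with a median log2 fold change of -0.18. These counts are near the 13.0% higher and 22.8% lower of all tested genes, so they set the list apart in neither direction. HSFA3 (LOC_Os02g32590), which in Arabidopsis is a direct target of DREB2A, had 10.08, 8.43 and 9.07 FPKM in HT, against 0.95, 2.20 and 1.20 FPKM in NT. The HT mean was 6.34 times the NT mean, and the log2 fold change was 2.09 with a 95% interval of 1.58 to 2.59 (limma, adjusted p = 0.0013). The ratio of HSFA3 to DREB2A FPKM within a sample was 2.85, 2.68 and 2.44 in HT, against 0.772, 1.33 and 0.553 in NT.

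HSFC2A (LOC_Os02g13800), a class C factor, had 1.94, 2.06 and 1.91 FPKM in HT, against 0.62, 0.80 and 0.88 FPKM in NT (log2 fold change 0.75, limma adjusted p = 0.0017). HSFA2C (LOC_Os10g28340) and HSFB2B (LOC_Os08g43334) were lower in every HT sample. HSFB2B belongs to the class B factors, some of which are regulated by MBF1c in Arabidopsis, and it had 0.36, 1.26 and 1.52 FPKM in HT, against 3.03, 4.25 and 3.86 FPKM in NT. Its call was lost without NT sample 2 or 3 (limma, adjusted p up to 0.058).

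HSFA1 (LOC_Os03g63750), of the class that in Arabidopsis turns on DREB2A and MBF1c under heat, had 2.27, 0.33 and 0.92 FPKM in HT, against 3.28, 0.54 and 4.37 FPKM in NT. The values varied more within the groups than between them (limma, adjusted p = 0.41). HSFA2D (LOC_Os03g06630) had 1.12, 1.06 and 1.27 FPKM in HT, against 2.25, 1.44 and 1.88 FPKM in NT. The HT samples were the lower ones, and the adjusted p of 0.053 (limma) just missed the threshold.

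Heat shock proteins, the effectors of the response, rose in 3 and fell in 1 of 8 tested genes of a list of 11. Over all tested genes 13.0% were higher and 22.8% were lower. Small heat shock proteins made up the 3 rises, HSP26.7, HSP17.9A and HSP16.9B, with log2 fold changes of 2.74, 2.34 and 1.58. HSP70d fell by 0.63 on the log2 scale, a call lost under each of the 3 other scalings and without any HT sample or NT sample 1 (limma, adjusted p up to 0.099). HSP101 (LOC_Os05g44340), a disaggregase, had 17.08, 17.41 and 27.50 FPKM in HT, against 13.68, 13.80 and 8.46 FPKM in NT and did not pass (limma, adjusted p = 0.085). The HT samples of HSP101 were all above the NT samples, as for 19.2% of all tested genes.

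Genes of trehalose and salicylic acid signalling, pathways tied to MBF1c in Arabidopsis, were on a list of 6, of which 4 had a row. The ethylene gene EIN2 and TPP2 were not analysed here. The 3 that were tested changed, 2 higher and 1 lower, where 35.8% of all tested genes changed. TPP1 (LOC_Os02g44230), a trehalose phosphate phosphatase, had 8.16, 7.85 and 8.13 FPKM in HT, against 4.87, 4.51 and 4.40 FPKM in NT. TPS1 (LOC_Os05g44210), the synthase that makes the substrate of TPP1, went the other way, with 5.43, 5.71 and 4.88 FPKM in HT, against 8.33, 8.43 and 8.47 FPKM in NT. The log2 fold changes were 0.69 for TPP1 and -0.57 for TPS1 (limma, adjusted p = 0.00070 and 0.0021). NPR1 (LOC_Os01g09800), a salicylic acid receptor and coactivator, had 1.42, 1.18 and 1.42 FPKM in HT, against 0.74, 0.33 and 0.57 FPKM in NT (log2 fold change 0.60, limma adjusted p = 0.014). PR1A (LOC_Os07g03710), a pathogenesis-related gene of salicylic acid responses, lay under the minimum, with 0, 0.06 and 0.03 FPKM in HT, against 0.28, 0.26 and 0.28 FPKM in NT. Every HT sample of PR1A was below every NT sample, and with no filter it was lower (limma, adjusted p = 0.0017).

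**Figure D4:**
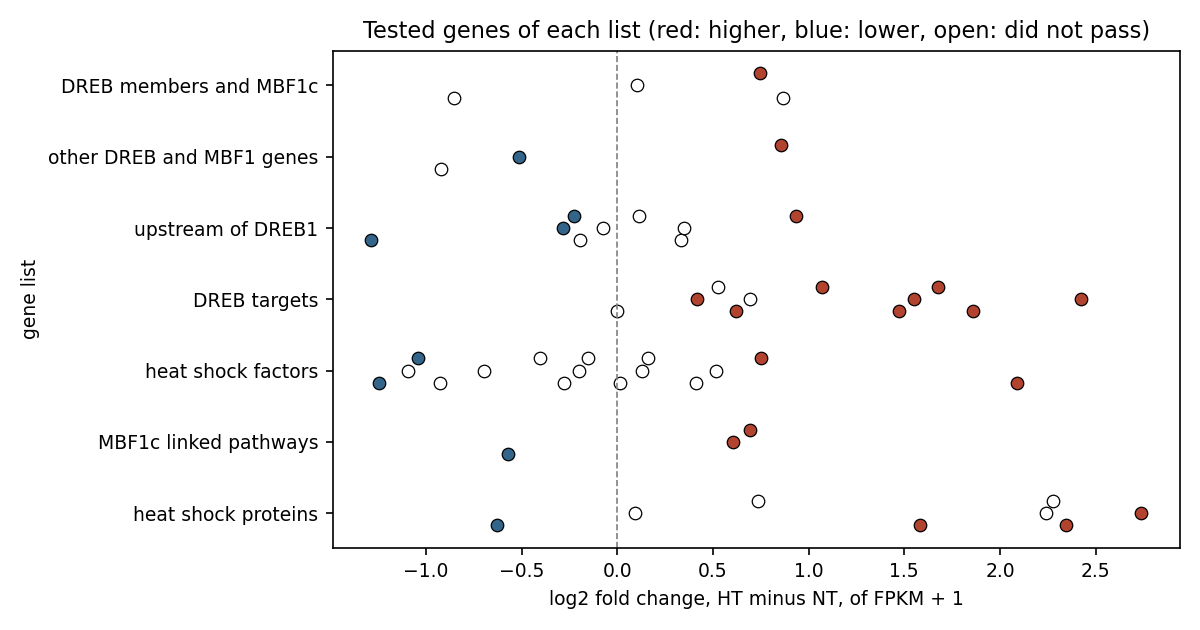
Log2 fold change of FPKM + 1 (x axis, HT minus NT) of every tested gene in the 7 lists (y axis), 1 point per gene; red points were higher in HT, blue points lower and open points did not pass at an adjusted p of 0.05. The list of DREB targets has 8 red and 0 blue points, while the upstream and heat shock factor lists have both colours.

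The genes most like each tested member were found by Pearson correlation of log2(FPKM + 1) over the 6 samples, a description that mainly reflects the 2 groups. Among list genes, DREB2A was most like MPK3 (r = 0.969) and HSFC2A (r = 0.958), and 264 of 17049 other tested genes had r of at least 0.95 with it. DREB1B was most like MPK3 (r = 0.786) and the glutelin gene GLUA2 (r = 0.767). DREB2B was most like SALT (r = 0.891), which shares its high value in HT sample 3, and HSP24.1 (r = 0.757). MBF1c was most like ICE2 (r = 0.920) and TPS1 (r = 0.790).

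Over all tested genes, the closest to DREB2A was LOC_Os11g19060 (r = 0.997), with 1.66, 1.59 and 1.91 FPKM in HT, against 0.20, 0.54 and 0.83 FPKM in NT. The closest to MBF1c was LOC_Os09g15820 (r = 0.998), with 3.32, 3.57 and 2.37 FPKM in HT, against 3.45, 4.49 and 4.17 FPKM in NT, again lowest in HT sample 3. The closest to DREB1B was LOC_Os02g05830 (r = 0.998), with 12.36, 4.04 and 12.03 FPKM in HT, against 4.66, 3.97 and 4.26 FPKM in NT. LOC_Os02g05830 was not at 0 in HT sample 2 but at its NT level there. The closest to DREB2B was LOC_Os03g21380 (r = 0.981). These identifiers carry no names in the sources used here.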

How the data were processed

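Total RNA was depleted of ribosomal RNA and sequenced paired-end on a HiSeq machine, per the labels' protocols. HISAT2 2.0.4, StringTie 1.3.0, cutadapt 1.10 and FastQC 0.10.1 are listed, without roles, in the submitters' processing notes. Build, annotation and strand use in quantification: not given in the sources used here. Values of FPKM per gene and sample were deposited by the authors, per the file headers, rounded to 2 decimals. Depth is unknown, and no count model was used. The other deposited tables, on lncRNAs and microRNAs, hold no member and were not used here.

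Log2(FPKM + 1) of the 17050 mRNA genes with a mean of at least 0.5 FPKM was fitted in R 4.3.3 with limma 3.58.1 (trend, two-sided, Benjamini-Hochberg adjustment over all of them, threshold 0.05). Members under the minimum had an exact permutation test. On simulated data for 16991 genes, log2 changes of 0.5, 1 and 2 were given to 67, 67 and 66 genes. Of these, 50.7%, 65.7% and 84.8% were recovered, and 10 of 144 calls were false. Recovery with 35.8% of genes changed, the share called in the data, was not tested. Changes were given only to genes above a higher level than the minimum for testing, which DREB1B, MBF1c and DREB2D did not reach. Recovery at their low levels was therefore not tested.

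Symbols were paired with locus identifiers by hand. Of 89 list genes, 62 symbols were found once in the RefSeq table (assembly ASM3414082v1), 61 of them on the chromosome of the identifier. The remaining locus, listed as HSP90, is counted but not described. MBF1c was not found, nor were ICE1, RAB16A and MBF1a, among others, and MPK3 and NPR1 were found more than once. The pairing of symbols not found exactly once was not checked in this way. The members, lists and naming rule were chosen with earlier results of these data known. The rule named all members and relatives with a row, HSFA1, HSFA3, HSFA2D, HSFA2C, HSFB2B, ICE1, HSP101, RAB16A, the 3 largest called genes per other list and the genes most like each member. Others are named where counts needed it, and LIP9 was chosen after its values were seen.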

Additional observations from a re-analysis of the deposited data

How the results depend on the processing

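Alternatives were pseudocounts of 0.1 and 0.5, no filter, a minimum mean of 1 FPKM, trimmed-mean scaling, quantile normalization, rescaling without the 100 most abundant genes, no variance trend, a replicate block and leaving out each sample. DREB2A kept its direction and call in all of them, with log2 fold changes of 0.62 to 1.03, and DREB2B and MBF1c kept direction and did not pass in any. DREB1A turned to -0.28 with a pseudocount of 0.1 (exact permutation p = 1), and leaving out single samples gave -0.33 to 0.28. DREB1B ranged from 0.58 to 1.39 without single samples and passed only without HT sample 2. DREB1C passed at 0.15 with no filter (limma, adjusted p = 0.026). DREB1A and DREB1C had no value with a minimum mean of 1 FPKM, no trend or the block, and DREB1B none with that minimum. Genes of the pathway lists lower in HT numbered 8, and 5 after trimmed-mean scaling and 5 after rescaling. Those higher numbered 17, and 14 to 18 in the alternatives. The labels give both groups the same replicate numbers but do not say that these pair samples. Same-numbered samples deviated together at correlations of only -0.0171, -0.00275 and 0.00389. Such values over all tested genes cannot decide whether the numbers mark pairs. With the replicate block, DREB2A had a log2 fold change of 0.75 (limma, adjusted p = 0.034), DREB1B 0.87, DREB2B 0.10 and MBF1c -0.85, and 1657 genes were higher and 2910 lower, against 2222 and 3887 without it. The cause of these shifts was not tested. Depth is unknown, and values rounded to 2 decimals limit what DREB1C and its low relatives can show.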
